A study of Homo sapiens with 8 samples.

Results

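The proteasome genes examined here were 40 named subunit and assembly genes: 7 of the alpha ring and 7 constitutive genes of the beta ring of the 20S core, 3 immunoproteasome subunits, 6 ATPase and 11 non-ATPase subunits of the 19S regulator, 4 proteasome activators and 2 assembly factors. They were chosen by name, as the subunits, activators and assembly factors of the complex, with earlier results of these data known. Symbols were paired with the versioned Ensembl identifiers of the expression files for 39 of the 40, among 57815 identifiers in all. The gene tables used here did not pair *PSMB3* with an identifier of the files, so *PSMB3* has no expression value below. RNA was sequenced from ABC1 and HCC4006, a pair of established human lung adenocarcinoma cell lines labelled as free of *KEAP1* and *NRF2* mutations, each kept in low-glucose medium with fetal bovine serum. Each line received the vehicle DMSO or 100 μM DEM for 16 h, which made 4 groups of 2 libraries and 8 libraries in all. DEM (diethyl maleate in the study's methods) is an electrophile that reacts with thiols and inhibits KEAP1, the adaptor through which the transcription factor NRF2 is sent to degradation. The study's methods call the 2 libraries of a group biological duplicates, the labels name no separate cultures, and each line stands for itself only, so that the p-values below measure the spread between these libraries.

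The proteasome degrades proteins tagged with ubiquitin. Its barrel-shaped 20S core carries the proteolytic sites on the inner beta rings, the outer alpha rings gate the entry, and the 19S regulator binds, deubiquitinates and unfolds the substrate with a ring of ATPases. In the immunoproteasome, which interferons induce and which makes peptides for MHC class I presentation, PSMB8, PSMB9 and PSMB10 take the places of the catalytic subunits PSMB5, PSMB6 and PSMB7. Proteasome genes are known to rise together through the transcription factor NRF1 (encoded by *NFE2L1*) when the proteasome is impaired, and NRF2 has been linked to subunit expression under electrophiles.

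Values are FPKM, fragments scaled to the length of the transcript and to the mapped fragments of the library, so levels can be set side by side between genes of different length. The sums of FPKM over a library differed by at most 1.18 times and the summed level of the 39 proteasome genes was between 0.630% and 0.688% of that sum in each of the 8 libraries. The FPKM files give no read totals, so the depth is unknown and no counting interval is given. The base mean, the mean scaled read count of a gene over a line's libraries in the deposited tables, had a median over these genes of 1399.9 in ABC1 and 1721 in HCC4006. All 7 DEM response genes checked (*NQO1*, *GCLM*, *GCLC*, *TXNRD1*, *SLC7A11*, *SRXN1* and *HMOX1*) were called higher with DEM in both lines. The 6 epithelial markers (*EPCAM*, *CDH1* and 4 keratins) reached a mean of 1 FPKM in both lines, with a summed level of 3666 to 5825 FPKM in ABC1 and 3443 to 4578 FPKM in HCC4006. Of the lung lineage markers, *NKX2-1* and *NAPSA* reached 1 FPKM in HCC4006 only, while *SFTPB* and *SFTPC* were at or near 0 in both lines. The leukocyte markers *PTPRC* and *CD3E* lay at or under 0.192 FPKM in all libraries, whereas *CD68*, a lysosomal gene used as a macrophage marker, lay between 1.55 and 2.54 FPKM in ABC1 and between 89.3 and 102 FPKM in HCC4006. The level of *CD68* is uncertain, since it overlaps another annotated gene on its own strand and had a base mean of only 0.240 and 5.56.

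The first question was whether DEM moved the proteasome genes within each line. With DEM, the immunoproteasome subunits *PSMB8* and *PSMB9* and the beta ring gene *PSMB4* fell in HCC4006, and the 19S genes *PSMD3* and *PSMD11* rose slightly there. In HCC4006, 3 of the 39 members were thus called lower and 2 higher, against 10.7% and 8.45% of all genes. No proteasome gene was called in ABC1, where *PSMB9* had a log2 fold change of -0.89, as in HCC4006, with 1 added to each FPKM. With 0.1 added in its place, the values were -1.10 in ABC1 and -0.98 in HCC4006. No difference between the lines' responses was called for any member. The calls of *PSMB4*, *PSMB8*, *PSMD3* and *PSMD11* did not hold under several alternative settings given below. Most members moved little: outside the immunoproteasome subunits, log2 fold changes ran from -0.32 (*PSME2*) to 0.57 (*PSME4*) in ABC1, and the range was -0.30 (*PSMB4*) to 0.30 (*PSMD11*) in HCC4006. Genes were compared by limma on log2(FPKM + 1) and called at a Benjamini-Hochberg adjusted p under 0.05 over all genes whose mean over the compared libraries reached 1 FPKM. Because of the added 1, fold changes of genes at low levels are smaller than their ratios. Groups of 2 limit any exact permutation test of one gene to a two-sided p of 0.333 at best.

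In ABC1, 38 of the 39 proteasome genes passed the minimum of 1 FPKM, 0 were called higher by limma, where 0.768% of the 12635 genes tested were, and 0 were called lower, where 0.435% were (1.20% either way). At an unadjusted p under 0.05, 3 members were higher (*PSMA5*, *PSMD4* and *PSME4*) and 2 lower (*PSMB9* and *PSMB10*), against 10.6% of all genes higher and 11.4% lower. The libraries of the groups did not overlap for 9 members that were higher with DEM and 7 that were lower, which is 23.7% and 18.4% of the members against 25.5% and 28.2% of all genes. The median log2 fold change was 0.07 over the 38 members and -0.02 over all genes tested.

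In HCC4006 all 39 passed, 2 were called higher, where 8.45% of the 13542 genes tested were, and 3 were called lower, where 10.7% were. The 5 called members are 12.8% of the 39, against 19.1% of all genes called either way, and their number changed with the settings, as given below. At an unadjusted p under 0.05, 6 members were higher and 9 lower, against 16.3% and 20.5% of all genes. The groups did not overlap for 13 members in each direction, 33.3% each, against 29.3% of all genes higher and 35.3% lower. The median log2 fold change was -0.01 over the members and -0.03 over all genes.

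**Figure D1:**
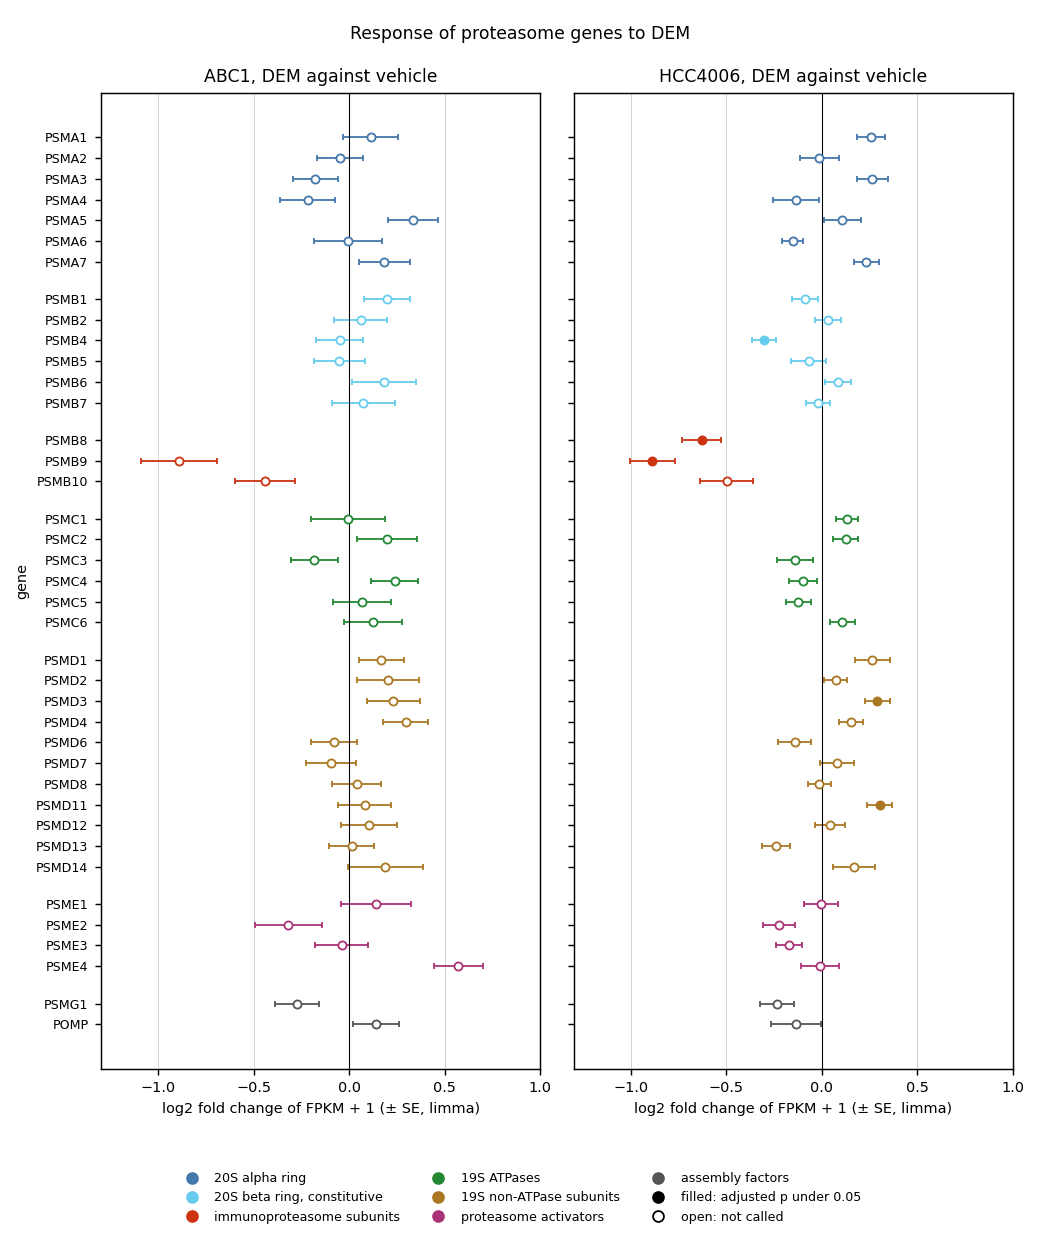
Log2 fold change of FPKM + 1 (DEM against vehicle, 2 libraries each) with its limma standard error for each proteasome gene, ABC1 on the left and HCC4006 on the right, coloured by subcomplex. Filled points have an adjusted p under 0.05. The immunoproteasome subunits lie furthest to the left in both lines, at -0.89 for *PSMB9*, while most others lie within 0.30 of 0. *PSMB8* is absent on the left because ABC1 is listed at 0.

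The immunoproteasome subunits carried the largest decreases. *PSMB9* (chr6:32811913-32827628 on GRCh37), the immunoproteasome counterpart of *PSMB6*, stood at 12.7 and 12.6 FPKM with vehicle and 5.85 and 6.95 FPKM with DEM in HCC4006, and at 5.49 and 6.11 FPKM with vehicle and 2.17 and 3.22 FPKM with DEM in ABC1. Both DEM libraries lay below both vehicle libraries in each line, and the mean with DEM was 50.5% of that with vehicle in HCC4006 and 46.5% in ABC1. The log2 fold change was -0.89 (SE 0.12) in HCC4006, called by limma with a Benjamini-Hochberg adjusted p of 0.00781. In ABC1 it was -0.89 (SE 0.20), and the adjusted p of 0.0926 did not pass the threshold. One model of all 8 libraries, which shares the spread between the lines, gave an adjusted p of 0.0149 for *PSMB9* in ABC1, within a range of 0.0149 to 0.354 over the 10 alternatives in which it was tested by limma. The call in HCC4006 held when any one library was left out, with adjusted p values of 0.0285 to 0.0473 by limma, and was lost of the 11 alternatives only with no minimum FPKM (0.0869, range 0.00431 to 0.0869).

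*PSMB8* (chr6:32808494-32812456), which takes the place of *PSMB5*, stood at 18.9 and 18.97 FPKM with vehicle and 11.1 and 12.7 FPKM with DEM in HCC4006. Both DEM libraries were lower, at 62.9% of the vehicle mean, with a log2 fold change of -0.63 (SE 0.10) and a limma Benjamini-Hochberg adjusted p of 0.0135. The call did not hold without vehicle replicate 0, vehicle replicate 1 or DEM replicate 0, with limma adjusted p values of 0.0650, 0.0735 and 0.0602 in this order (range over all 11 alternatives 0.00775 to 0.101). In ABC1 *PSMB8* was listed at 0 in 3 libraries and at practically 0 in the other, with a base mean of 0.259 in the deposited table, so no fold change is given for that line.

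*PSMB10* (chr16:67968409-67970767), the counterpart of *PSMB7*, stood at 17.3 and 14.4 FPKM with vehicle and 12.1 and 9.81 FPKM with DEM in HCC4006 and at 6.38 and 7.22 FPKM with vehicle and 4.41 and 5.08 FPKM with DEM in ABC1. The DEM libraries were again below the vehicle libraries in both lines, at 68.9% and 69.8% of the vehicle mean. Neither difference was called: the log2 fold changes were -0.50 (SE 0.14) with a limma Benjamini-Hochberg adjusted p of 0.0560 in HCC4006 and -0.44 (SE 0.16) with 0.185 in ABC1. In HCC4006 *PSMB10* was called in 2 of the 11 alternatives, among them a minimum of 5 FPKM (limma adjusted p = 0.0401, range 0.0204 to 0.270). In the deposited tables, which were scaled separately for each line, the base mean was 41.4 in ABC1 and 98.0 in HCC4006 for *PSMB9*, and 18.8 and 100.0 for *PSMB10*. For each FPKM the base mean of *PSMB10* was 3.26 in ABC1 and 7.46 in HCC4006, so its level, and its difference between the lines, is uncertain. *PSMB9* overlaps *PSMB8* and *TAP1* on the opposite strand and *PSMB8-AS1* on its own, *PSMB10* also overlaps another annotated gene on its own strand, and whether the authors' counting used strand is not given in the sources used here. With DEM, 3 of the 6 epithelial markers were called lower in HCC4006, where 10.7% of all genes were, and 0 in ABC1, where 0.435% were. Their median log2 fold change was -0.27 in HCC4006, with 5 below 0, and -0.45 in ABC1, with 6 below 0. *KRT7* was the lowest at -0.51 (SE 0.06) in HCC4006 and -1.02 (SE 0.17) in ABC1. The part of these markers in the immunoproteasome decreases was not tested. In whole cultures, fewer cells with a transcript and less of it per cell cannot be told apart.

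The constitutive catalytic subunits that these 3 replace were not called. *PSMB5*, with chymotrypsin-like activity, stood at 34.3 and 37.3 FPKM with vehicle and 37.1 and 32.0 FPKM with DEM in ABC1 and at 55.5 and 55.5 FPKM with vehicle and 49.1 and 56.9 FPKM with DEM in HCC4006. *PSMB6*, with caspase-like activity, stood at 168 and 199 FPKM with vehicle and 185 and 232 FPKM with DEM in ABC1 and at 116 and 121 FPKM with vehicle and 123 and 129 FPKM with DEM in HCC4006. *PSMB7*, with trypsin-like activity, stood at 147 and 170.3 FPKM with vehicle and 149 and 187 FPKM with DEM in ABC1 and at 155 and 157 FPKM with vehicle and 149.9 and 157 FPKM with DEM in HCC4006. The groups of all 3 overlapped in both lines except for *PSMB6* in HCC4006, where both DEM libraries were higher. The log2 fold changes and their 95% intervals were -0.05 (-0.38 to 0.28) and -0.07 (-0.29 to 0.15) for *PSMB5* in ABC1 and HCC4006. They were 0.18 (-0.24 to 0.60) and 0.08 (-0.08 to 0.25) for *PSMB6*. For *PSMB7* they were 0.07 (-0.33 to 0.48) and -0.02 (-0.18 to 0.14), so each interval held 0.

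The level of each immunoproteasome subunit as a percentage of its constitutive counterpart in the same library restates this contrast with the same values. *PSMB8* was 34.1% and 34.2% of *PSMB5* in the vehicle libraries of HCC4006 and 22.6% and 22.3% in the DEM libraries. *PSMB9* was 11.0% and 10.4% of *PSMB6* with vehicle and 4.77% and 5.40% with DEM in HCC4006, and 3.27% and 3.08% with vehicle and 1.18% and 1.39% with DEM in ABC1. *PSMB10* was 11.2% and 9.18% of *PSMB7* with vehicle and 8.04% and 6.23% with DEM in HCC4006, and 4.34% and 4.24% with vehicle and 2.97% and 2.72% with DEM in ABC1. Every DEM library was thus below every vehicle library of its line for each pair whose immunoproteasome gene was detected. These ratios compare values per length and were not tested on their own. They reuse the FPKM given above and add no further support, and the level of *PSMB10* is uncertain as said.

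**Figure D2:**
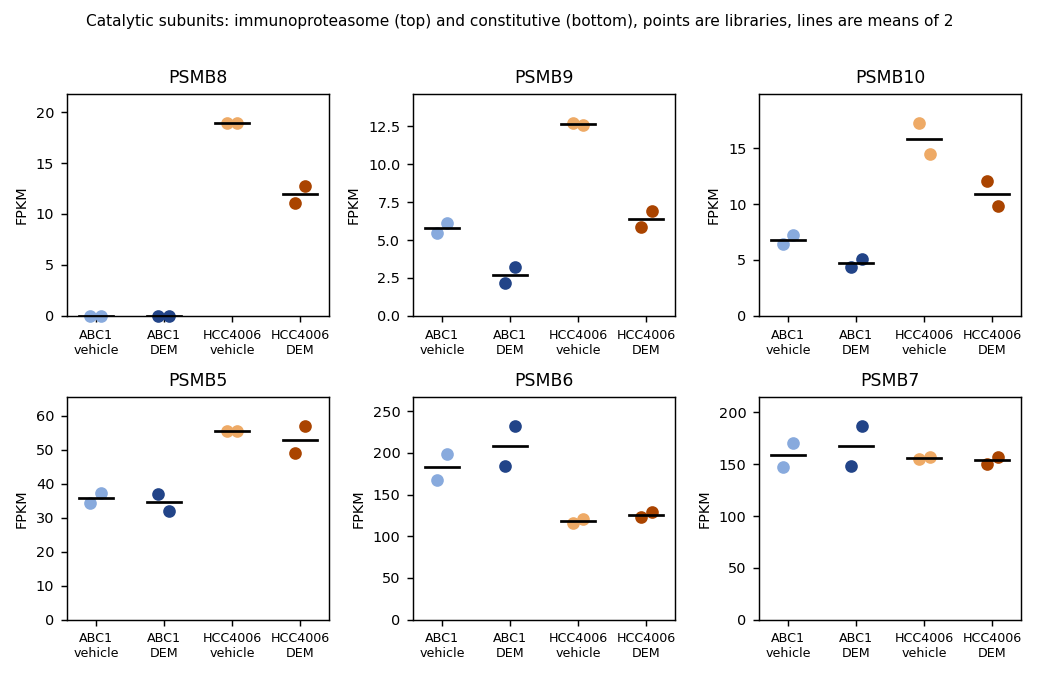
FPKM of the immunoproteasome subunits (top) and the constitutive catalytic subunits whose places they take (bottom) in each library, with the mean of the 2 libraries of a group as a line and each axis starting at 0. *PSMB8*, *PSMB9* and *PSMB10* are lower with DEM than with vehicle wherever they are detected, whereas the groups of *PSMB5*, *PSMB6* and *PSMB7* overlap except for *PSMB6* in HCC4006, which is higher with DEM. *PSMB8* is listed at 0 in ABC1 with vehicle.

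The windows around the transcription starts of 6 genes are shown because they can be read beside the values in HCC4006. They are the 3 immunoproteasome genes, of which *PSMB10* was not called, and the called genes *PSMB4*, *PSMD3* and *PSMD11*. Sequences are those of RefSeq on GRCh38.p14, 250 bases before and 50 after each start, 5′ to 3′ on the strand of the gene, and windows were found for 35 of the 40 genes (42 windows). Capitals mark a match to the antioxidant response element core TGACNNNGC, bound by NRF2 with small MAF proteins, to the gamma-interferon activation site TTCNNNGAA, or to the core of the interferon-stimulated response element (GAAA, any 2 bases, then GAAA), each searched on both strands. *PSMB8* has a pair of windows, chr6:32844630-32844929 for start A and chr6:32843998-32844297 for start B, both on the minus strand. *PSMB9* is at chr6:32853942-32854241 (plus strand), *PSMB10* at chr16:67936801-67937100 (minus strand), *PSMB4* at chr1:151399323-151399622, *PSMD3* at chr17:39980557-39980856 and *PSMD11* at chr17:32444260-32444559 (plus strand for these 3).
PSMB8 start A: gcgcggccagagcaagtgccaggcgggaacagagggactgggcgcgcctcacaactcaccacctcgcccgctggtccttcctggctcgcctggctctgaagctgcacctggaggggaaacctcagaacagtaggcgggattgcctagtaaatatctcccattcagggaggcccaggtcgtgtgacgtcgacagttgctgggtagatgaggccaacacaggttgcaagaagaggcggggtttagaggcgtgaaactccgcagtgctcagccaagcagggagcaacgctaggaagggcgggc
PSMB8 start B: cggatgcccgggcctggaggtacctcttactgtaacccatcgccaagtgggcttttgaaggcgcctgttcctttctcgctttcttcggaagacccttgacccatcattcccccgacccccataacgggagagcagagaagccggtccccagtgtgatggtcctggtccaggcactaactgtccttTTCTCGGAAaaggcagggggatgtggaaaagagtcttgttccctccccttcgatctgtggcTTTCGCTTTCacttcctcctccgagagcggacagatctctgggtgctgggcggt
PSMB9: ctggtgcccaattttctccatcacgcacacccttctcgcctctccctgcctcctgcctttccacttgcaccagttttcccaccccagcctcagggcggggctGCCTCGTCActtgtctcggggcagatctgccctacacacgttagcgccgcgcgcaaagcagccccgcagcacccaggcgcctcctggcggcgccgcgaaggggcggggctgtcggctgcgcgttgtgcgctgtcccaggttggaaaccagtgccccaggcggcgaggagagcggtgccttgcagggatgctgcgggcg
PSMB10: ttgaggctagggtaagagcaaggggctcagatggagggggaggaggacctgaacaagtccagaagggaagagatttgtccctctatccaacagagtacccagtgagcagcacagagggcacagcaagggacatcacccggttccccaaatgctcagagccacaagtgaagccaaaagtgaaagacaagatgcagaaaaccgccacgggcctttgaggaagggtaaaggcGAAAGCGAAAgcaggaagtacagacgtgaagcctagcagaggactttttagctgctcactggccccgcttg
PSMB4: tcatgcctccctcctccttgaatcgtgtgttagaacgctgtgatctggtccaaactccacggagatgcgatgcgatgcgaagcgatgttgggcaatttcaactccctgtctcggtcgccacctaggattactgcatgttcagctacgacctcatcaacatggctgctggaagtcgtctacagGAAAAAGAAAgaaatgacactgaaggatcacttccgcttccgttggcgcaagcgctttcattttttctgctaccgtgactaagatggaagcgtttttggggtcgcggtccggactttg
PSMD3: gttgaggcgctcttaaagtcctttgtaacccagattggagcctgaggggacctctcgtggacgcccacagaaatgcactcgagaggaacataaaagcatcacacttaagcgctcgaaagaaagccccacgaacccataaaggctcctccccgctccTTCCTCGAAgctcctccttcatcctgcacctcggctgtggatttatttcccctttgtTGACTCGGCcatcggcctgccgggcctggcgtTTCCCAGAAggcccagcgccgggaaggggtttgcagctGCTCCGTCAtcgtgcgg
PSMD11: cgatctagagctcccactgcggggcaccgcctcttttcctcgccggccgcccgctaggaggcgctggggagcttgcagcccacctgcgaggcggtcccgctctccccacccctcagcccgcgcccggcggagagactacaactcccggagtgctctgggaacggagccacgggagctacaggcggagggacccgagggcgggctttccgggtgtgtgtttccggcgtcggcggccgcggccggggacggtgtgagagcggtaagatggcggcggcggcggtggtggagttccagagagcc

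The windows differ in what they hold. At start B of *PSMB8*, TTCTCGGAA begins 65 bases before the start and TTTCGCTTTC, the interferon-stimulated core on the other strand, 4 bases before it, while start A and *PSMD11* hold none of the 3 motifs. *PSMB10* holds GAAAGCGAAA 21 bases before the start and *PSMB4* holds GAAAAAGAAA 68 bases before it. *PSMB9* holds the antioxidant core on the other strand, GCCTCGTCA, 148 bases before its start. *PSMD3* holds 4 matches: TTCCTCGAA, TGACTCGGC and TTCCCAGAA at 94, 37 and 5 bases before the start, and GCTCCGTCA on the other strand 33 bases after it. No matches overlap in these windows. Over all members the antioxidant core was found in 12 of 42 windows (28.6%), against 13.3% of all 35116 windows of the same length. The gamma-interferon site was found in 7 of 42 (16.7%) against 7.66% and the interferon-stimulated core in 6 of 42 (14.3%) against 3.57%. Among the DEM response genes checked, 5 had windows, and 2 of these (*GCLM* and *TXNRD1*) held the antioxidant core. The genes with the interferon-stimulated core were *PSMA4*, *PSMB4*, *PSMB8*, *PSMB10* and the activators *PSME1* and *PSME2*. Such matches describe the letters of these windows, and their part in the changes was not tested.

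Apart from the catalytic subunits, the beta ring held 1 called gene among its 6 measured constitutive members. It was called lower in HCC4006, where 10.7% of all genes were. *PSMB4* (chr1:151372036-151374413), a beta ring gene without catalytic activity, stood at 169 and 173 FPKM with vehicle and 135 and 142 FPKM with DEM in HCC4006 and at 238 and 248 FPKM with vehicle and 230.3 and 239 FPKM with DEM in ABC1. Both DEM libraries of HCC4006 were lower, with a log2 fold change of -0.30 (SE 0.06) and a limma Benjamini-Hochberg adjusted p of 0.0278, whereas the ABC1 libraries overlapped with a log2 fold change of -0.05 (SE 0.12). The call was lost when any one of the 4 libraries was left out, with limma adjusted p values of 0.0618 to 0.149, and held in 4 of the 11 alternatives (range 0.0156 to 0.149). *PSMB1*, also without catalytic activity, had the highest log2 fold change of the beta ring in ABC1, 0.20 (SE 0.12), from 99.1 and 107 FPKM with vehicle and 116 and 121 FPKM with DEM. In HCC4006 *PSMB1* stood at 107 and 109 FPKM with vehicle and 98.2 and 106 FPKM with DEM, a log2 fold change of -0.09. *PSMB2* had log2 fold changes of 0.06 and 0.03.

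In the alpha ring, which gates the core, 0 of 7 genes were called in either line, and the log2 fold changes ran from -0.22 to 0.33 in ABC1, around a median of -0.0068, and from -0.15 to 0.26 in HCC4006, around a median of 0.11. *PSMA5* was the highest in ABC1 at 48.5 and 52.8 FPKM with vehicle and 67.8 and 60.5 FPKM with DEM, a log2 fold change of 0.33 (SE 0.13), and stood at 64.0 and 68.7 FPKM with vehicle and 66.0 and 77.4 FPKM with DEM in HCC4006. *PSMA4* was the lowest in ABC1 at 149 and 172 FPKM with vehicle and 128 and 148 FPKM with DEM, a log2 fold change of -0.22 (SE 0.14), and at 131 and 154 FPKM with vehicle and 117 and 143 FPKM with DEM in HCC4006. *PSMA3* lay on opposite sides of 0 in the lines without overlap of the groups, at 105 and 110.4 FPKM with vehicle and 97.5 and 92.7 FPKM with DEM in ABC1 and at 97.7 and 108 FPKM with vehicle and 119 and 128 FPKM with DEM in HCC4006. Its log2 fold changes were -0.18 (SE 0.12) in ABC1 and 0.26 (SE 0.08) in HCC4006. *PSMA6* was the lowest in HCC4006 at 469 and 466 FPKM with vehicle and 422 and 418 FPKM with DEM, a log2 fold change of -0.15 (SE 0.06). In ABC1 it stood at 165 and 201 FPKM with vehicle and 161 and 204 FPKM with DEM, and the groups overlapped. *PSMA1* and *PSMA7* were higher in both DEM libraries of HCC4006, with log2 fold changes of 0.26 (SE 0.07) and 0.23 (SE 0.07) and limma Benjamini-Hochberg adjusted p values of 0.0585 and 0.0605. Both were called in 3 of the 11 alternatives, with limma adjusted p values of 0.0456 and 0.0490 at a minimum of 5 FPKM and of 0.0439 and 0.0472 with median-of-ratios scaling (ranges 0.0339 to 0.206 and 0.0299 to 0.279). *PSMA1*, *PSMA2* and *PSMA6* also overlap other annotated genes on their own strand, and their base mean was 0.406, 2.58 and 0.830 for each FPKM in HCC4006, against 7.46 to 76.3 for the other 36 members, so their levels are uncertain.

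None of the 6 ATPases of the 19S ring was called in either line. *PSMC4* and *PSMC3* were at the ends of the range in ABC1: *PSMC4* stood at 105 and 116 FPKM with vehicle and 133 and 128 FPKM with DEM, a log2 fold change of 0.24 (SE 0.12), and *PSMC3* at 106 and 112 FPKM with vehicle and 100.4 and 91.9 FPKM with DEM, a log2 fold change of -0.18 (SE 0.12). In HCC4006 *PSMC4* stood at 109 and 103 FPKM with vehicle and 95.6 and 102 FPKM with DEM and *PSMC3* at 77.8 and 89.9 FPKM with vehicle and 72.9 and 78.6 FPKM with DEM. The DEM groups of *PSMC4* were thus higher in ABC1 and lower in HCC4006 without overlap, with log2 fold changes of 0.24 and -0.10. *PSMC1* was the highest in HCC4006 at 492 and 494 FPKM with vehicle and 549.5 and 529 FPKM with DEM, a log2 fold change of 0.13 (SE 0.06), and at 123 and 155 FPKM with vehicle and 119.6 and 158 FPKM with DEM in ABC1. The ATPases as a list had medians of 0.10 in ABC1 and 0.0031 in HCC4006, and *PSMC2*, *PSMC5* and *PSMC6* lay from -0.12 to 0.20 over both lines.

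Of the 11 non-ATPase subunits of the 19S regulator, 2 were called higher in HCC4006, where 8.45% of all genes were, and 0 lower, where 10.7% were, and 0 were called in ABC1. *PSMD11* (chr17:30771397-30810337), a lid subunit, stood at 69.9 and 71.8 FPKM with vehicle and 87.5 and 87.7 FPKM with DEM in HCC4006 and at 88.5 and 103 FPKM with vehicle and 96.4 and 106 FPKM with DEM in ABC1. *PSMD3* (chr17:38137060-38154212), also a lid subunit, stood at 72.2 and 72.1 FPKM with vehicle and 89.0 and 87.9 FPKM with DEM in HCC4006 and at 99.4 and 117 FPKM with vehicle and 123 and 131 FPKM with DEM in ABC1. In HCC4006 both DEM libraries lay above both vehicle libraries for both genes, with means of 124% and 123% of vehicle. The log2 fold changes were 0.30 (SE 0.07) and 0.29 (SE 0.06), with limma Benjamini-Hochberg adjusted p values of 0.0297 and 0.0324. Both calls were lost when any one of the 4 libraries was left out, with limma adjusted p values of 0.0854 to 0.153 for *PSMD11* and 0.0842 to 0.153 for *PSMD3*. Each held in 4 of the 11 alternatives, whose adjusted p values ranged over 0.0210 to 0.153 and 0.0227 to 0.153. In ABC1 the log2 fold change was 0.08 (SE 0.14) for *PSMD11*, whose groups overlapped, and 0.23 (SE 0.14) for *PSMD3*, whose groups did not.

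Other subunits of the regulator were not called. *PSMD4*, a ubiquitin receptor, was the highest of them in ABC1 at 118 and 121 FPKM with vehicle and 151 and 143 FPKM with DEM, a log2 fold change of 0.29 (SE 0.12), and stood at 103 and 104 FPKM with vehicle and 113 and 117 FPKM with DEM in HCC4006, also without overlap (0.15, SE 0.06). *PSMD13*, a lid subunit, was the lowest in HCC4006 at 62.1 and 65.7 FPKM with vehicle and 52.4 and 55.5 FPKM with DEM, a log2 fold change of -0.24 (SE 0.07) with a limma Benjamini-Hochberg adjusted p of 0.0738. In ABC1 *PSMD13* stood at 67.7 and 70.6 FPKM with vehicle and 72.1 and 67.4 FPKM with DEM, with overlap. *PSMD7*, partner of the deubiquitinase PSMD14, was the lowest in ABC1 at 96.1 and 109 FPKM with vehicle and 92.3 and 99.2 FPKM with DEM (-0.10, SE 0.13) and stood at 110.2 and 124 FPKM with vehicle and 117 and 130.2 FPKM with DEM in HCC4006, and the groups overlapped in both lines. *PSMD14* itself differed by 0.19 (SE 0.20) in ABC1 and 0.17 (SE 0.11) in HCC4006, with overlap in both. Over the 11 subunits the median log2 fold change was 0.10 in ABC1, with 9 above 0, and 0.08 in HCC4006, with 8 above 0.

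The activators cap the core in place of the 19S regulator. *PSME4*, which forms such a cap on its own, stood at 26.0 and 26.1 FPKM with vehicle and 36.7 and 41.8 FPKM with DEM in ABC1, 151% of vehicle, and at 25.8 and 23.3 FPKM with vehicle and 25.6 and 23.1 FPKM with DEM in HCC4006. The log2 fold change in ABC1 was 0.57 (SE 0.13), the highest of the members, but it was not called (limma Benjamini-Hochberg adjusted p = 0.0925), and in HCC4006 it was -0.01 (SE 0.10) with overlap. One model of all 8 libraries gave an adjusted p of 0.0180 for *PSME4* in ABC1, within a range of 0.0121 to 0.382 over the 11 alternatives by limma. *PSME1* and *PSME2* encode the interferon-inducible cap linked to the immunoproteasome. *PSME2* stood at 25.8 and 34.7 FPKM with vehicle and 22.6 and 25.1 FPKM with DEM in ABC1 and at 50.0 and 53.1 FPKM with vehicle and 41.8 and 46.3 FPKM with DEM in HCC4006. It was lower in both DEM libraries of each line, with log2 fold changes of -0.32 (SE 0.17) and -0.22 (SE 0.08), and not called (limma adjusted p = 0.345 and 0.116). *PSME1* stood at 29.8 and 37.8 FPKM with vehicle and 32.8 and 42.0 FPKM with DEM in ABC1 and at 48.6 and 55.8 FPKM with vehicle and 51.7 and 52.1 FPKM with DEM in HCC4006, with overlap in both lines. *PSME3*, the nuclear activator, differed by -0.04 (SE 0.14) and -0.17 (SE 0.07).

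Neither assembly factor was called. *PSMG1*, a chaperone of alpha ring assembly, stood at 49.0 and 47.9 FPKM with vehicle and 39.5 and 40.4 FPKM with DEM in ABC1 and at 51.5 and 47.5 FPKM with vehicle and 39.6 and 44.3 FPKM with DEM in HCC4006, lower with DEM in both lines without overlap. Its log2 fold changes were -0.27 (SE 0.12) and -0.23 (SE 0.09), with limma Benjamini-Hochberg adjusted p values of 0.245 and 0.120. *POMP*, which assists beta ring assembly and core maturation, stood at 37.2 and 35.4 FPKM with vehicle and 41.6 and 38.6 FPKM with DEM in ABC1 and at 27.5 and 31.7 FPKM with vehicle and 23.9 and 29.9 FPKM with DEM in HCC4006. *POMP* was slightly higher with DEM in ABC1 (0.14, SE 0.12) and overlapped in HCC4006 (-0.14, SE 0.13).

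The partners of the proteasome were taken from lists of genes with known roles, chosen with earlier results of these data known. Of 8 other subunits and partners above the minimum, 2 were called higher in HCC4006 (8.45% of all genes were) and 0 in ABC1 (0.768% of all genes were): *USP14*, a deubiquitinase that docks on the 19S regulator, and *ECPAS*, a proteasome adaptor. *USP14* stood at 34.9 and 34.1 FPKM with vehicle and 46.5 and 50.8 FPKM with DEM in HCC4006, a log2 fold change of 0.48 (SE 0.08), and *ECPAS* at 65.0 and 65.9 FPKM with vehicle and 107 and 97.6 FPKM with DEM, a log2 fold change of 0.63 (SE 0.07). Both were also higher in both DEM libraries of ABC1, by 0.34 (SE 0.12) and 0.60 (SE 0.16), without a call. Of 8 other assembly and import factors, 1 was called higher in HCC4006, where 8.45% of all genes were, and 0 in ABC1, where 0.768% were. The called gene was *AKIRIN2*, which serves nuclear import of proteasomes. It stood at 37.8 and 32.8 FPKM with vehicle and 63.0 and 62.0 FPKM with DEM in HCC4006 (0.81, SE 0.09). In ABC1 it stood at 19.4 and 23.0 FPKM with vehicle and 31.0 and 35.1 FPKM with DEM (0.62, SE 0.14, not called). The remaining alpha ring chaperones *PSMG2*, *PSMG3* and *PSMG4* had log2 fold changes of -0.39, -0.24 and -0.53 in ABC1 and of -0.29, -0.08 and -0.17 in HCC4006, all not called. *PSMA8* and *PSMB11*, subunits of the testis and the thymus, were below the minimum in both lines.

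Of the 8 genes of NRF1 processing and NRF2 control, 3 were called higher in HCC4006 and 1 in ABC1, against the same 8.45% and 0.768%. *NFE2L1*, which encodes NRF1, was not among them, at 166 and 201 FPKM with vehicle and 169.5 and 276 FPKM with DEM in ABC1 and at 130.3 and 127 FPKM with vehicle and 141 and 113 FPKM with DEM in HCC4006, with overlap in both lines and log2 fold changes of 0.24 (SE 0.25) and -0.03 (SE 0.11). *DDI2* and *NGLY1*, which process NRF1, were not called either, with log2 fold changes of 0.21 and 0.01 in ABC1 and 0.13 and -0.05 in HCC4006. *KEAP1* was called in both lines, at 47.0 and 46.9 FPKM with vehicle and 90.9 and 96.6 FPKM with DEM in ABC1 (0.98, SE 0.12) and at 44.3 and 43.7 FPKM with vehicle and 72.1 and 82.5 FPKM with DEM in HCC4006 (0.80, SE 0.09). *NFE2L2*, which encodes NRF2, and *MAFG*, its small MAF partner, were called in HCC4006 with log2 fold changes of 0.45 (SE 0.08) and 1.67 (SE 0.09), and differed by 0.68 (SE 0.17) and 1.22 (SE 0.18) in ABC1 without a call.

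Among 11 ubiquitin shuttles and p97 factors, 5 were called higher in HCC4006 (45.5% against the 8.45% of all genes). In ABC1, 1 was called higher (9.09% against 0.768%). Since the list was chosen with earlier results of these data known, these shares are no test of the list. *SQSTM1*, an autophagy receptor that binds ubiquitin and KEAP1, was called in both lines, with log2 fold changes of 1.71 (SE 0.13) in ABC1 and 1.26 (SE 0.06) in HCC4006. The others called in HCC4006 were *ZFAND5* (0.83, SE 0.07) and *ZFAND2A* (0.77, SE 0.10), zinc finger proteins that bind the proteasome, *VCP* (0.39, SE 0.06), the p97 unfoldase, and *UBQLN1* (0.32, SE 0.07), a shuttle. Of the 5 ubiquitin and E1 enzyme genes reported here, limma called 0 in either line, and 1 in each line had an unadjusted p under 0.05. No gene of these partner lists was called lower in either line. Leaving out each library in turn, the HCC4006 calls of *ECPAS*, *AKIRIN2*, *KEAP1*, *MAFG*, *ZFAND5*, *ZFAND2A* and *SQSTM1* held in all 4 fits, those of *USP14* and *NFE2L2* in 1, and those of *UBQLN1* and *VCP* in 0. Over the 11 alternatives the limma adjusted p values ran from 0.0188 to 0.204 for *UBQLN1* and from 0.00758 to 0.0799 for *VCP*. In ABC1 the call of *SQSTM1* held in 2 of its 4 such fits (limma adjusted p over the 11 alternatives 0.000223 to 0.207) and that of *KEAP1* in 0 (0.00161 to 0.310).

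The genes of interferon-linked antigen processing belong to the same pathway as the immunoproteasome. In HCC4006, 1 of the 7 reported here was called higher, where 8.45% of all genes were, and the other 6 were not called in either direction. The called gene was *NLRC5*, the transactivator of MHC class I genes, at 14.8 and 15.8 FPKM with vehicle and 25.2 and 23.1 FPKM with DEM (0.63, SE 0.09). That call held in 1 of the 4 fits that left out a library (limma adjusted p over the 11 alternatives 0.00592 to 0.0839). The log2 fold change in HCC4006 was -0.21 (SE 0.09) for *IRF1*, a transcription factor of interferon signalling. The peptide transporter genes *TAP1* and *TAP2* differed by -0.09 (SE 0.10) and -0.45 (SE 0.18). The median over the 7 genes was -0.18 in HCC4006 and over the 5 tested in ABC1 -0.20, where limma called 0 and 1 had an unadjusted p under 0.05.

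**Figure D3:**
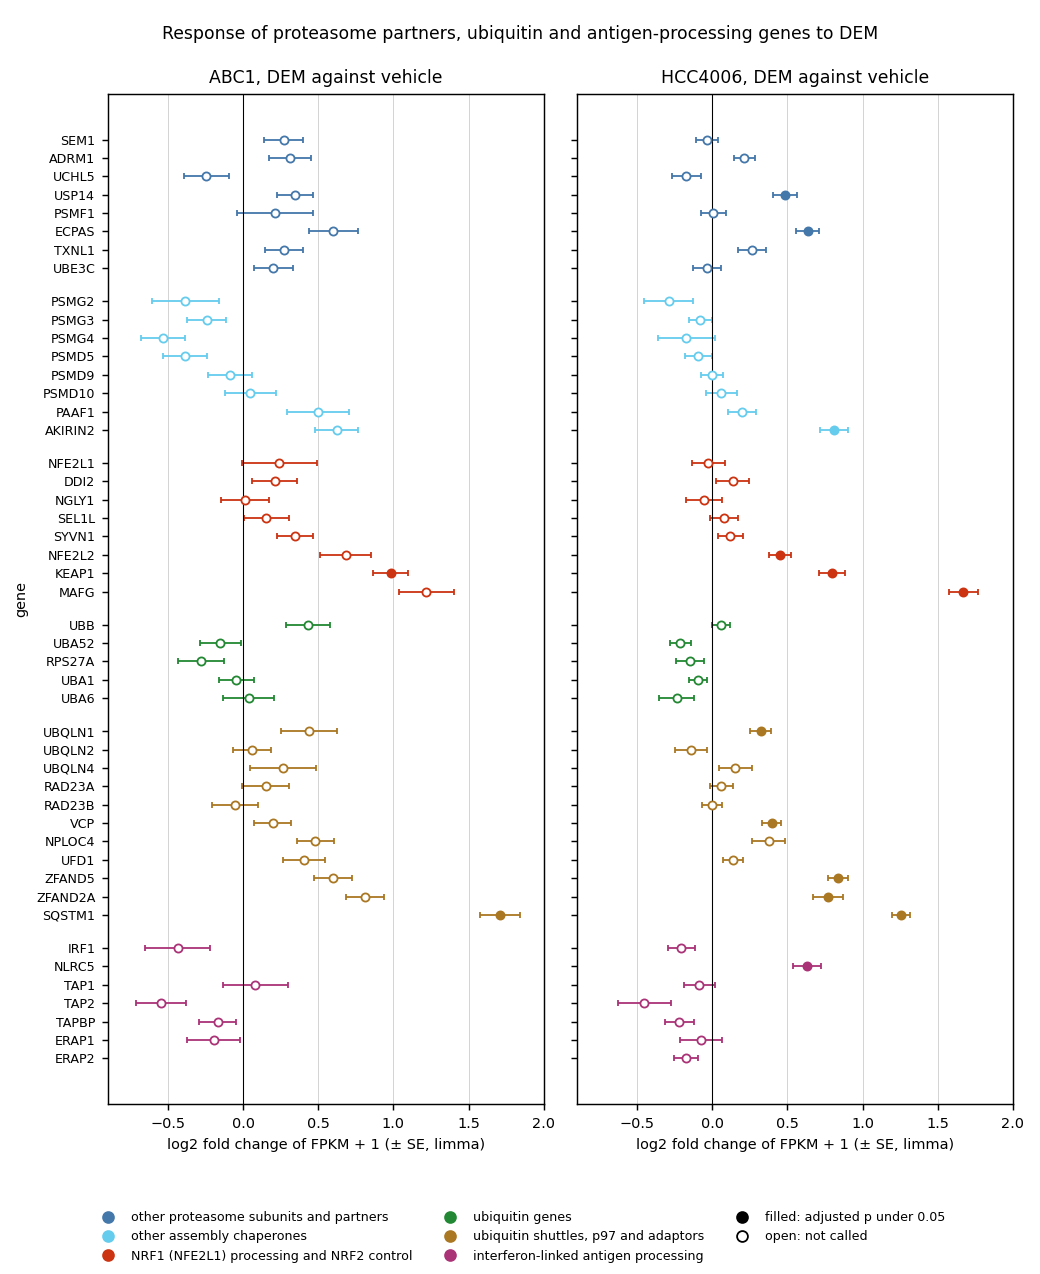
Log2 fold change of FPKM + 1 (DEM against vehicle) with its limma standard error for proteasome partners, ubiquitin genes and interferon-linked genes in ABC1 (left) and HCC4006 (right), coloured by list. Filled points have an adjusted p under 0.05, and all of them lie above 0. *SQSTM1* and *MAFG* have the highest values, 1.71 in ABC1 and 1.67 in HCC4006.

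Whether the lines differed in their response was tested by the interaction of line and treatment over all 8 libraries. By limma, 0 of the 39 members were called, against 0.307% of the 13682 genes tested higher in HCC4006, 0.329% lower and 0.636% either way. At an unadjusted p under 0.05, 1 member was higher (*PSMA3*) and 3 lower (*PSMB8*, *PSMC4* and *PSME4*), against 7.27% and 7.85% of all genes. For *PSMB9* the difference between the lines was 0.0033 on the log2 scale with a 95% interval of -0.52 to 0.53, and for *PSMB10* it was -0.06 (-0.54 to 0.43). The value of *PSMB9* depends on the added 1, as its fold changes with 0.1 added show. The difference for *PSME4* was -0.58 (-0.94 to -0.22, limma Benjamini-Hochberg adjusted p = 0.148) and that for *PSMA3* 0.44 (0.13 to 0.75, adjusted p = 0.188). For *PSMC4* it was -0.34 (-0.64 to -0.04, limma adjusted p = 0.276). The value of *PSMB8* only repeats its change in HCC4006, since ABC1 is listed at 0.

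The lines were also compared without DEM, with the vehicle libraries that serve as controls above. Of the 39 members 12 were called higher in HCC4006, where 37.3% of the 13747 genes tested were, and 8 lower, where 30.4% were. The 12 include *PSMB8*, which reached the minimum of 1 FPKM only through HCC4006. The 20 called members are 51.3% of the 39, against 67.7% of all genes called either way. The groups did not overlap for 16 members in each direction (41.0%), against 45.6% of all genes higher and 39.5% lower. A difference in level between lines and a difference in how their libraries were handled cannot be told apart here.

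All 3 immunoproteasome subunits were called higher in HCC4006, where 37.3% of all genes were. *PSMB8* stood at 0 and 0 FPKM in ABC1 and 18.9 and 18.97 FPKM in HCC4006 with vehicle, and no fold is given against a group listed at 0. Since *PSMB8* reached the minimum of 1 FPKM only through HCC4006, its call adds no support. *PSMB9* stood at 5.49 and 6.11 FPKM in ABC1 and 12.7 and 12.6 FPKM in HCC4006, a log2 difference of 1.01 (SE 0.11), and *PSMB10* at 6.38 and 7.22 FPKM in ABC1 and 17.3 and 14.4 FPKM in HCC4006, a log2 difference of 1.11 (SE 0.13), with limma Benjamini-Hochberg adjusted p values of 0.000800 and 0.00115. *PSME1* and *PSME2*, whose products cap the immunoproteasome, were also higher, by 0.62 (SE 0.15) and 0.76 (SE 0.16) on the log2 scale. All 7 interferon-linked genes reported here were called between the lines, where 67.7% of all genes were. Of the 7, 5 were higher in HCC4006, where 37.3% of all genes were. They were *IRF1* by 2.18 (SE 0.16), *NLRC5* by 3.09 (SE 0.13), *TAP1* by 1.58 (SE 0.11), *TAPBP* by 0.40 (SE 0.11) and *ERAP2* by 4.49 (SE 0.12). *TAP2* and *ERAP1* were lower, with log2 differences of -0.76 (SE 0.18) and -0.84 (SE 0.12). The base mean of *TAP2*, which overlaps another annotated gene on its own strand, went the other way, at 149.7 in ABC1 and 275 in HCC4006, so its direction is uncertain. *NLRC5* and *ERAP2* lay at 0.807 and 1.03 FPKM in ABC1 and 14.8 and 15.8 FPKM in HCC4006 and at 0.194 and 0.257 FPKM in ABC1 and 27.3 and 25.8 FPKM in HCC4006, so their differences depend on the added 1. With means of 0.917 and 0.225 FPKM in ABC1, both reached the minimum only through HCC4006, so their calls add no support. *PTPRC* and *CD3E*, which define leukocytes rich in immunoproteasome, were at or near 0 in both lines, whereas *CD68*, the third marker of that list, was called higher in HCC4006 with a log2 difference of 5.02 (SE 0.18). The part of other cell types in the immunoproteasome difference was not tested.

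Other subunits differed between the lines in both directions. *PSMC1* stood at 123 and 155 FPKM in ABC1 and 492 and 494 FPKM in HCC4006 with vehicle (log2 difference 1.83, SE 0.13), and its processed copy *PSMC1P1* reached at most 5.70 FPKM. *PSMC6* stood at 71.4 and 84.8 FPKM in ABC1 and 181 and 192 FPKM in HCC4006 (1.25, SE 0.11) and *PSMA6*, whose level is uncertain as said, at 165 and 201 FPKM in ABC1 and 469 and 466 FPKM in HCC4006 (1.36, SE 0.12). These 3 were the subunits furthest above ABC1 apart from *PSMB8*. *PSMD2*, the large 19S scaffold, went the other way, at 606 and 704 FPKM in ABC1 and 295 and 305 FPKM in HCC4006, a log2 difference of -1.12 (SE 0.11), and it was the highest of all members in ABC1. The 20S genes *PSMB2*, *PSMB4* and *PSMB6* were lower in HCC4006 as well, *PSMB2* at 93.2 and 110.2 FPKM in ABC1 and 61.1 and 61.8 FPKM in HCC4006 (-0.71, SE 0.11), *PSMB4* with a log2 difference of -0.50 (SE 0.09) and *PSMB6* with one of -0.62 (SE 0.11). *PSMB5* and *PSMD12* were higher, *PSMB5* by 0.62 (SE 0.09) and *PSMD12*, at 58.1 and 61.7 FPKM in ABC1 and 89.8 and 98.8 FPKM in HCC4006, by 0.64 (SE 0.10). The remaining calls were smaller: *PSMA2* (0.36) and *PSMA5* (0.38) higher, and *PSMC3* (-0.38), *PSMD3* (-0.57), *PSMD8* (-0.34) and *PSMD11* (-0.42) lower. Without either vehicle library of HCC4006 the calls shrank to 7 higher and 1 lower, and the 8 genes called in each of the 4 leave-one-out fits were *PSMA6*, *PSMB8*, *PSMB9*, *PSMB10*, *PSMC1*, *PSMC6*, *PSMD2* and *PSMD12*.

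**Figure D4:**
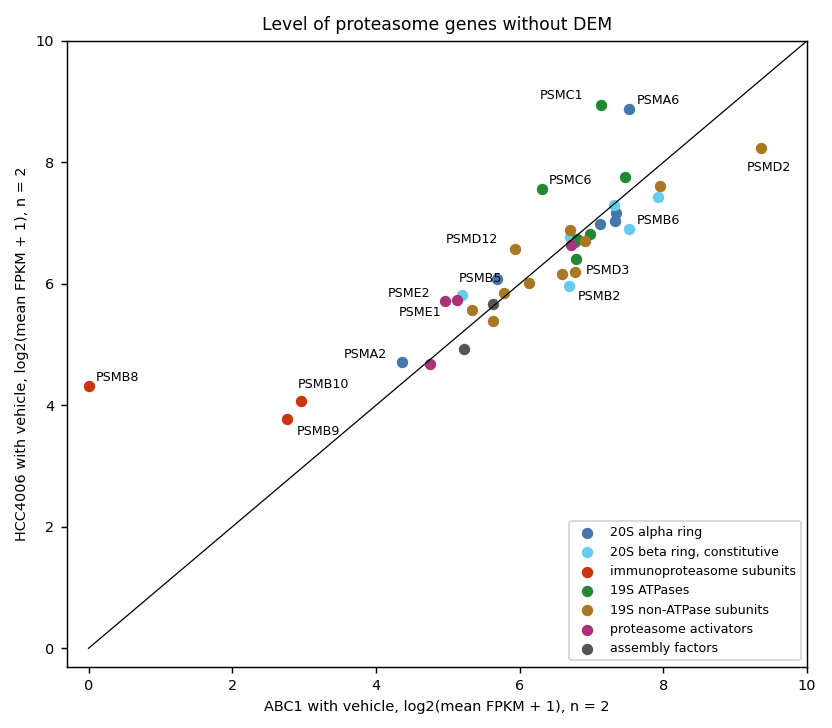
Level of each proteasome gene with vehicle, as log2 of the mean FPKM + 1 over 2 libraries, in ABC1 (horizontal) and HCC4006 (vertical), coloured by subcomplex, with the line of equal level. *PSMB8*, *PSMB9* and *PSMB10* lie at the lower left above the line, *PSMC1*, *PSMA6* and *PSMC6* lie above it at high levels, and *PSMD2* lies below it at the upper right.

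Per length, the members other than the immunoproteasome subunits spanned 19.5 FPKM (*PSMA2*) to 655 FPKM (*PSMD2*) in ABC1 with vehicle and 24.5 FPKM (*PSME4*) to 493 FPKM (*PSMC1*) in HCC4006. *PSMB9* and *PSMB10* were below all of them in both lines, at means of 5.80 and 6.80 FPKM in ABC1 and 12.7 and 15.9 FPKM in HCC4006. Within the constitutive beta ring *PSMB5* had the lowest level and *PSMB4* the highest in both lines. Within the alpha ring *PSMA2* was listed lowest and *PSMA6* highest in both, but the levels of both are uncertain as said: the base mean of *PSMA6* was 176 and 368, below that of *PSMA4* (1820.0 and 1721).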

How the data were processed

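Poly(A) RNA of 8 libraries was sequenced strand-specifically. Per the labels' processing notes the authors used bcl2fastq 2.15.0, cutadapt 1.15, STAR 2.5.3a, SAMtools, HTSeq, Cuffnorm and DESeq2 with R 3.2.0 on GRCh37 (hg19), whereas the study's methods name TopHat and Cufflinks, so which aligner made the FPKM values is not settled. The authors deposited one FPKM value per gene and library, and for each line a DESeq2 table whose base mean, a signal of scaled read counts averaged over the line's libraries, was used here only as a guide to depth. The fold changes and p-values of the authors' own comparison in those tables were not used.

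Genes whose mean reached 1 FPKM over the libraries of a fit were compared on log2(FPKM + 1) with limma 3.58.1 (R 4.3.3, empirical Bayes with a mean-variance trend). P-values were Benjamini-Hochberg adjusted over all genes tested and called under 0.05. The 4 libraries of a line entered its DEM comparison, the 4 vehicle libraries the comparison of lines, and all 8 the interaction. The script was tested on simulated data with the mean and spread of each gene. Of 100 genes given a log2 fold change of 1 in either direction, limma called 34 in ABC1 and 60 in HCC4006. Of 100 given a log2 fold change of 2, it called 86 and 92. Changes of that size can thus be missed, more so in ABC1. Promoter windows were read from RefSeq (GRCh38.p14) with Python 3.11.15, and gene coordinates from the annotation on GRCh37.

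The proteasome genes and the other lists were chosen with earlier results of these data known. Values in every library are given for called genes (in the comparison of lines, the 12 with the smallest p), for the constitutive and immunoproteasome catalytic subunits, and for the highest and lowest fold change of each subcomplex in each line. Partner lists are given by counts, with values mainly for called genes, and other genes named there were chosen for their role after the values were seen. Alternatives were another pseudocount (0.1), no minimum or one of 5 FPKM, no trend, median-of-ratios scaling, a replicate block, one model of all 8 libraries, and leaving out each library. *PSMB3* and the marker *PECAM1* were not matched. Results of some context and marker genes are not reported here, and list counts leave those genes out.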

Additional observations from a re-analysis of the deposited data

How the results depend on the processing

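With 2 libraries per group and no read totals, small changes such as those of most subunits were at the limit of what these data can resolve, and the cause of the changes between settings was not tested. In ABC1, 0 proteasome genes were called higher and 0 lower, and one model of all 8 libraries called 1 higher (*PSME4*) and 1 lower (*PSMB9*). That model called 6.17% of all genes higher and 6.24% lower in ABC1. In HCC4006, a minimum of 5 FPKM called 11.9% of all genes higher and median-of-ratios scaling 9.44%. Of the members there, 2 were called higher and 3 lower at the main setting. The number higher was 0 with no minimum FPKM, 4 with a minimum of 5 FPKM, 0 with no trend, 4 with median-of-ratios scaling, 0 in one model of all 8 libraries and 0 to 0 on leaving out each library. The number lower was 0 with no minimum FPKM and 1 to 2 on leaving out each library, and only *PSMB9* was called in each of those fits. Between the lines with vehicle, 12 were higher and 8 lower, and leaving out each library gave 7 to 12 higher and 1 to 11 lower. No interaction was called under any of its 14 alternatives, and no called gene changed its direction. The median log2 fold change of the members ranged over the alternatives between -0.03 and 0.16 in ABC1, while HCC4006 gave -0.03 to 0.02, so it has no settled sign.

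Over all genes, the calls in ABC1 (97 higher, 55 lower) ran from 0 to 1185 higher and 0 to 1163 lower. Those in HCC4006 (1144 and 1447) ran from 177 to 1457 and 193 to 1847, and median-of-ratios scaling turned the balance to 1279 higher and 1240 lower. The interaction gave 0 to 173 higher and 2 to 230 lower (42 and 45), and the vehicle comparison 3055 to 5618 and 2517 to 4519 (5121 and 4184).

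A replicate block, the replicate number of the titles as a term, called 2 members higher (*PSMD4* and *PSME4*) and 1 lower (*PSMB9*) in ABC1. Of all genes, it called 9.38% higher and 9.20% lower there. In HCC4006 it called 5 members higher and 5 lower, against 10.8% and 13.6% of all genes. It gave 12 and 7 in the vehicle comparison, against 37.6% and 30.8% of all genes. The deviations of same-numbered libraries correlated at 0.258 in ABC1 and 0.0544 in HCC4006 over genes, and no label says that the number marks a shared culture or day, so this pairing is not used above.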

Other observations

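Of the processed copies of proteasome genes named in the annotation, *PSMC1P1* reached 5.70 FPKM, against at least 119.6 FPKM for *PSMC1*, and *PSMA6P1* reached 1.18 FPKM. The remaining copies lay below that.

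Of the cell type marker lists not given above, 1 of 4 fibroblast markers had a mean of at least 1 FPKM in ABC1 and 2 of 4 in HCC4006, with summed levels of 3.58 to 6.12 FPKM and 7.04 to 9.14 FPKM. The 2 endothelial markers matched summed to at most 0.236 FPKM in any library.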
